A study of Sesamum indicum with 6 samples.

Results

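The genes described here are the Aux/IAA repressors, the auxin response factors (ARFs) and the auxin receptors of sesame (Sesamum indicum), measured by RNA sequencing of young leaves. They were chosen by product name from the 20661 genes of the authors' deposited table. Names holding auxin-responsive protein IAA, auxin-induced protein AUX, auxin response factor, TRANSPORT INHIBITOR RESPONSE or AUXIN SIGNALING F-BOX gave 50 genes. ARF3 and both ARF4 genes were left out, which left 47: 17 Aux/IAA genes, 25 ARFs and 5 receptors. A count table of 25762 genes gave the reads of each.

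The plants were recombinant inbred lines, 17 days old as seedlings, homozygous for either allele of the SiCD locus on linkage group 8. SiCD_B carries the mutant kan1 and SiCD_A the wild-type KAN1. KAN1 belongs to the KANADI transcription factors, which set the lower side of the leaf. Each allele was represented by 19 plants and by 3 pools of RNA, and each pool mixed 9 plants drawn at random. As 3 pools of 9 make 27 places, plants must recur between the pools of a group. The p-values below therefore reflect the spread of pools that overlap in plants, and chance differences between both sets of lines at other loci are not covered by them. Growth conditions were the same for all plants, with 12 h of light per day and temperatures of 28 °C (light) and 22 °C (dark).

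Auxin acts by destroying repressors. Aux/IAA proteins bind ARFs, which are transcription factors at the promoters of auxin-responsive genes, and hold them inactive together with TOPLESS corepressors. Auxin joins an Aux/IAA protein to a TIR1 or AFB receptor, the F-box subunit of a ubiquitin ligase, and the repressor is degraded. Many Aux/IAA genes are themselves switched on by ARFs, so the pathway feeds back on itself. In young leaves auxin directs blade outgrowth, vein formation and cell expansion.

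Total counts were 74331695 to 82165322 in the SiCD_B pools and 56123250 to 74705569 in the SiCD_A pools. The transcript of KAN1 (LOC105167765) itself stood at 54.4 ± 1.88 CPM in SiCD_B and 22.7 ± 2.30 CPM in SiCD_A (SD, n = 3 pools each), and the labels give no sequence of kan1, so this level does not check them. Levels are given as CPM, counts scaled to a library of 1000000 reads with TMM factors. Each ± is the SD over the 3 pools of a group. Levels are not divided by transcript length, so they are compared between pools and not between genes.

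Of the 47 genes, 46 had enough reads to be tested, and 29 were higher in SiCD_B than in SiCD_A while 0 were lower. These were 11 of 17 Aux/IAA genes, 15 of 24 tested ARFs and 3 of 5 receptors. Over all 21009 genes tested, 30.6% were called, 16.5% as higher and 14.1% as lower. The median log2 fold change was 0.28 for the 46 genes and 0.01 for all genes. By class it was 0.58 for Aux/IAA genes, 0.23 for ARFs and 0.23 for receptors. Whether the classes differ from one another was not tested. In a leaf pool, more cells that express a gene and more RNA of it per cell cannot be told apart.

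A call is an adjusted p under 0.05 in edgeR's quasi-likelihood test, with Benjamini-Hochberg adjustment over all genes tested. The count of 0 lower genes also held in DESeq2 and limma-voom, and 1 gene, an IAA14 (LOC105158425), was lower at an unadjusted p under 0.05. With library size as the only scaling, 33 of the 46 were higher and 0 lower, and calls over all genes were then 67.5% higher against 53.8% with TMM.

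**Figure D1:**
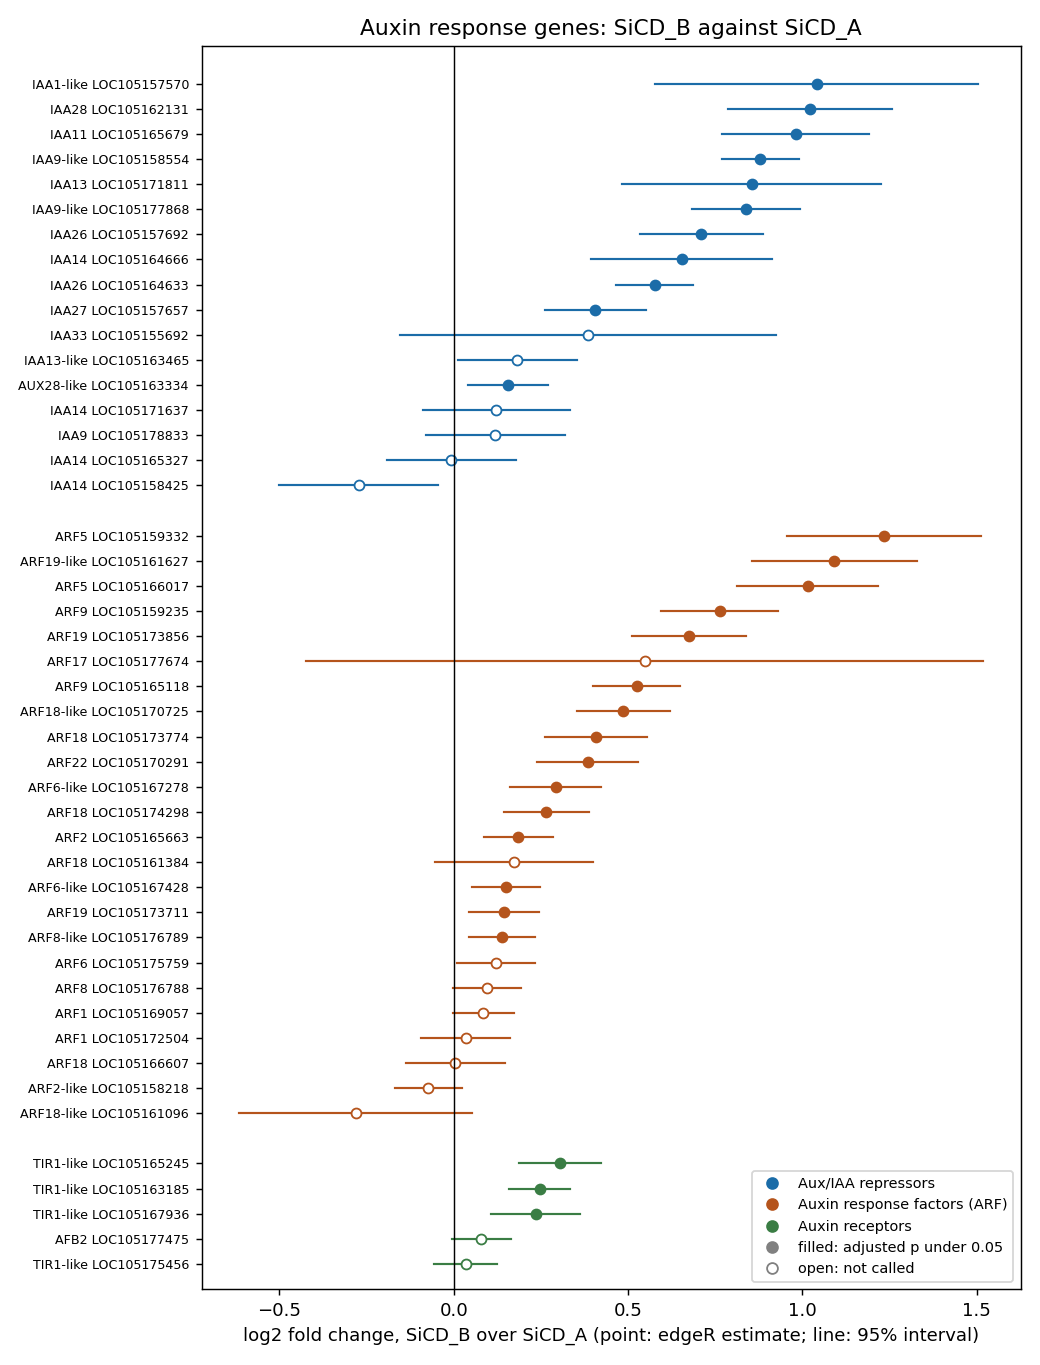
The horizontal axis is the log2 fold change of SiCD_B over SiCD_A for each of the 46 tested genes, with the 95% interval as a line. Filled points were called (29 of 46), all of them to the right of 0, and the receptors lie closest together, between 0.03 and 0.31.

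All SiCD_B pools lay above all SiCD_A pools for 35 of the 46 genes and below them for 2. The corresponding shares of all tested genes were 25.8% and 22.6%. Changes of at least 1.5-fold among the called genes numbered 8 in the Aux/IAA class, 5 among ARFs and 0 among receptors. Over all genes 4.24% were called and at least 1.5-fold higher, and 1.26% at least 2-fold. The 5 genes past 2-fold were IAA1-like, IAA28, both ARF5 genes and ARF19-like.

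**Figure D2:**
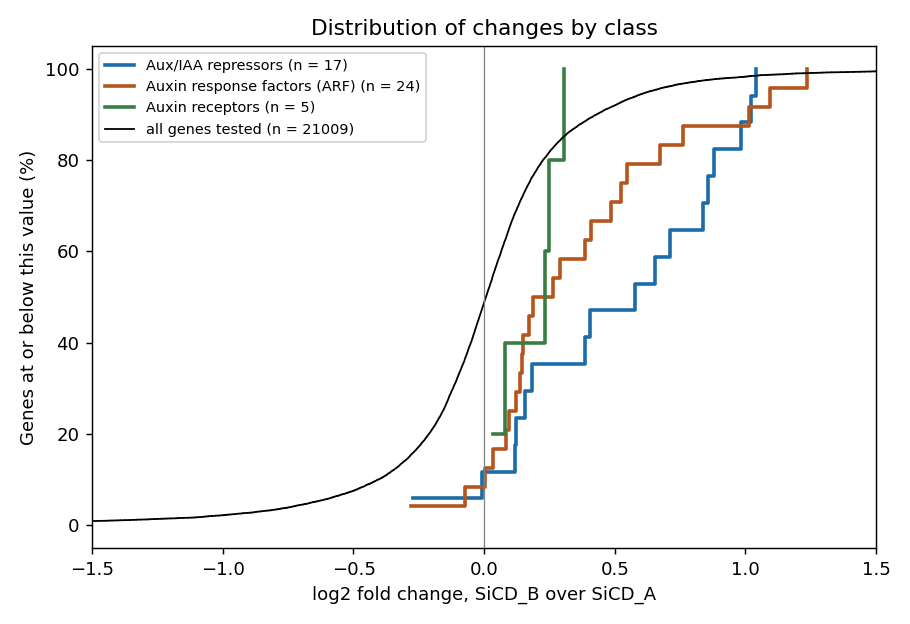
The horizontal axis is the log2 fold change of SiCD_B over SiCD_A, and the vertical axis the percentage of genes at or below it, for 17 Aux/IAA genes, 24 ARFs, 5 receptors and all 21009 genes tested. The curve of all genes crosses 50% at 0.01, that of the Aux/IAA genes at 0.58 and those of ARFs and receptors at 0.23.

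Among the repressors, both IAA9-like genes were higher in SiCD_B. IAA9 is known from tomato, where its loss turns compound leaves into simple ones. IAA9-like LOC105158554 (linkage group 3, coding segment 16097280 to 16097851) had 173, 193 and 183 CPM in the SiCD_B pools, against 101, 99.3 and 98.0 CPM in the SiCD_A pools. Every SiCD_B pool was above every SiCD_A pool, and the SiCD_A values lay within a few CPM of each other. Its mean was 183 ± 10.2 CPM in SiCD_B and 99.4 ± 1.48 CPM in SiCD_A (SD, n = 3 pools each), a log2 change of 0.88 (SE 0.05, adjusted p = 3.24e-05). IAA9-like LOC105177868 (linkage group 15, coding segment 4600559 to 4601169) had 76.1, 90.0 and 84.9 CPM in the SiCD_B pools, against 45.96, 44.6 and 49.9 CPM in the SiCD_A pools, with pool 2 highest in SiCD_B and pool 3 highest in SiCD_A. It rose by 0.84 (SE 0.07, adjusted p = 0.000151) on the log2 scale. Another gene of this name, IAA9 (LOC105178833), had 9.25 ± 0.574 CPM in SiCD_B and 8.51 ± 0.588 CPM in SiCD_A. Its groups overlapped, and the change of 0.12 (SE 0.09, adjusted p = 0.332) did not pass, with a 95% interval of -0.08 to 0.32.

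The IAA26 genes also rose together. IAA26 is known from Arabidopsis as a protein bound by the replicase of a tobamovirus. IAA26 LOC105164633 (linkage group 1, coding segment 11762360 to 11762790) had 88.6, 96.2 and 85.8 CPM in the SiCD_B pools, against 60.3, 60.2 and 61.1 CPM in the SiCD_A pools. The SiCD_A pools were nearly equal, and the lowest SiCD_B pool was well above them, a log2 change of 0.58 (SE 0.05, adjusted p = 0.000167). IAA26 LOC105157692 (linkage group 3, coding segment 8421189 to 8421628) had 42.4, 52.8 and 49.4 CPM in the SiCD_B pools, against 28.5, 30.4 and 29.5 CPM in the SiCD_A pools, with pool 1 the lowest in both groups and no overlap. Its log2 fold change was 0.71 (SE 0.08, adjusted p = 0.000434).

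IAA11, IAA28, IAA27 and IAA1-like, each the one gene of its name here, were also called. IAA11 (LOC105165679, linkage group 6, coding segment 23910101 to 23910476) had 19.9, 24.1 and 19.7 CPM in the SiCD_B pools, against 10.01, 11.3 and 10.95 CPM in the SiCD_A pools. Its level in SiCD_B pool 2 stood above the other pools of the group, and the groups did not overlap. The log2 fold change was 0.98 (SE 0.09, adjusted p = 0.000248). IAA28 (LOC105162131, linkage group 5, coding segment 6127524 to 6127753), known from Arabidopsis as a repressor of lateral root formation, had 5.93, 6.33 and 6.21 CPM in the SiCD_B pools, against 2.90, 2.97 and 3.23 CPM in the SiCD_A pools. Its pools were tight within each group, and it changed by 1.02 (SE 0.10, adjusted p = 0.000315). IAA27 (LOC105157657, linkage group 3, coding segment 8152648 to 8153165) had 63.7, 74.1 and 72.4 CPM in the SiCD_B pools, against 55.7, 52.1 and 50.7 CPM in the SiCD_A pools, a smaller shift of 0.41 (SE 0.06, adjusted p = 0.00210). IAA1-like (LOC105157570, linkage group 3, coding segment 7514382 to 7514581) had 6.998, 9.89 and 10.9 CPM in the SiCD_B pools, against 4.17, 3.78 and 5.59 CPM in the SiCD_A pools. It varied most between pools among the called repressors, with an SE of 0.20, and its log2 fold change was 1.04 (SE 0.20, adjusted p = 0.00705).

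IAA13 and IAA14 each had members that were called and members that were not. IAA14 is known from Arabidopsis, where a stabilised form blocks lateral roots, and IAA13 there is a close relative of the embryo patterning repressor BODENLOS. IAA13 (LOC105171811, linkage group 10, coding segment 3207667 to 3207949), whose product name is marked as low quality, had 9.44, 8.56 and 7.23 CPM in the SiCD_B pools, against 5.32, 5.04 and 3.53 CPM in the SiCD_A pools. It rose by 0.85 (SE 0.16, adjusted p = 0.00553). IAA13-like (LOC105163465) had 12.6 ± 0.356 CPM in SiCD_B and 11.1 ± 0.820 CPM in SiCD_A, with no overlap between groups but no call. Its log2 change was 0.18 (SE 0.08, adjusted p = 0.0972). Without SiCD_A pool 3 it passed the threshold (adjusted p = 0.0425).

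Of 4 genes named IAA14, the one on linkage group 1 was called. It (LOC105164666, linkage group 1, coding segment 12098142 to 12098186) had 10.99, 11.4 and 9.87 CPM in the SiCD_B pools, against 6.31, 6.23 and 8.02 CPM in the SiCD_A pools, a log2 change of 0.65 (SE 0.11, adjusted p = 0.00349). On linkage group 3, IAA14 LOC105158425 had 6.03, 5.07 and 5.73 CPM in the SiCD_B pools, against 7.11, 6.73 and 6.48 CPM in the SiCD_A pools. All SiCD_B pools were below all SiCD_A pools there, and the log2 fold change was -0.27 (SE 0.10, adjusted p = 0.0694), with a 95% interval of -0.50 to -0.05. IAA14 LOC105171637 had 13.6 ± 0.701 CPM in SiCD_B and 12.5 ± 1.47 CPM in SiCD_A and IAA14 LOC105165327 42.3 ± 2.89 CPM in SiCD_B and 42.5 ± 4.49 CPM in SiCD_A. The groups overlapped for both, with intervals of -0.09 to 0.33 and -0.19 to 0.18 on the log2 scale. That the 4 genes respond differently was not tested.

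The last called repressor was AUX28-like (LOC105163334), named for a soybean gene, with 182 ± 7.44 CPM in SiCD_B and 163 ± 7.94 CPM in SiCD_A. It rose by only 0.16 (SE 0.05, adjusted p = 0.0447), and the call was lost without SiCD_B pool 1 (adjusted p = 0.0915), SiCD_B pool 2 (0.143), SiCD_A pool 1 (0.0532), SiCD_A pool 2 (0.116) or SiCD_A pool 3 (0.1096). It was also lost with DESeq2 size factors (0.0602) and upper-quartile factors (0.0601). IAA33 (LOC105155692), at 2.03 ± 0.554 CPM in SiCD_B and 1.55 ± 0.328 CPM in SiCD_A, overlapped between groups and was not called. Its log2 change was 0.39 (SE 0.24, adjusted p = 0.250). Summed over the 17 genes, the Aux/IAA class had 771, 839 and 786 CPM in the SiCD_B pools, against 581, 562 and 553 CPM in the SiCD_A pools.

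**Figure D3:**
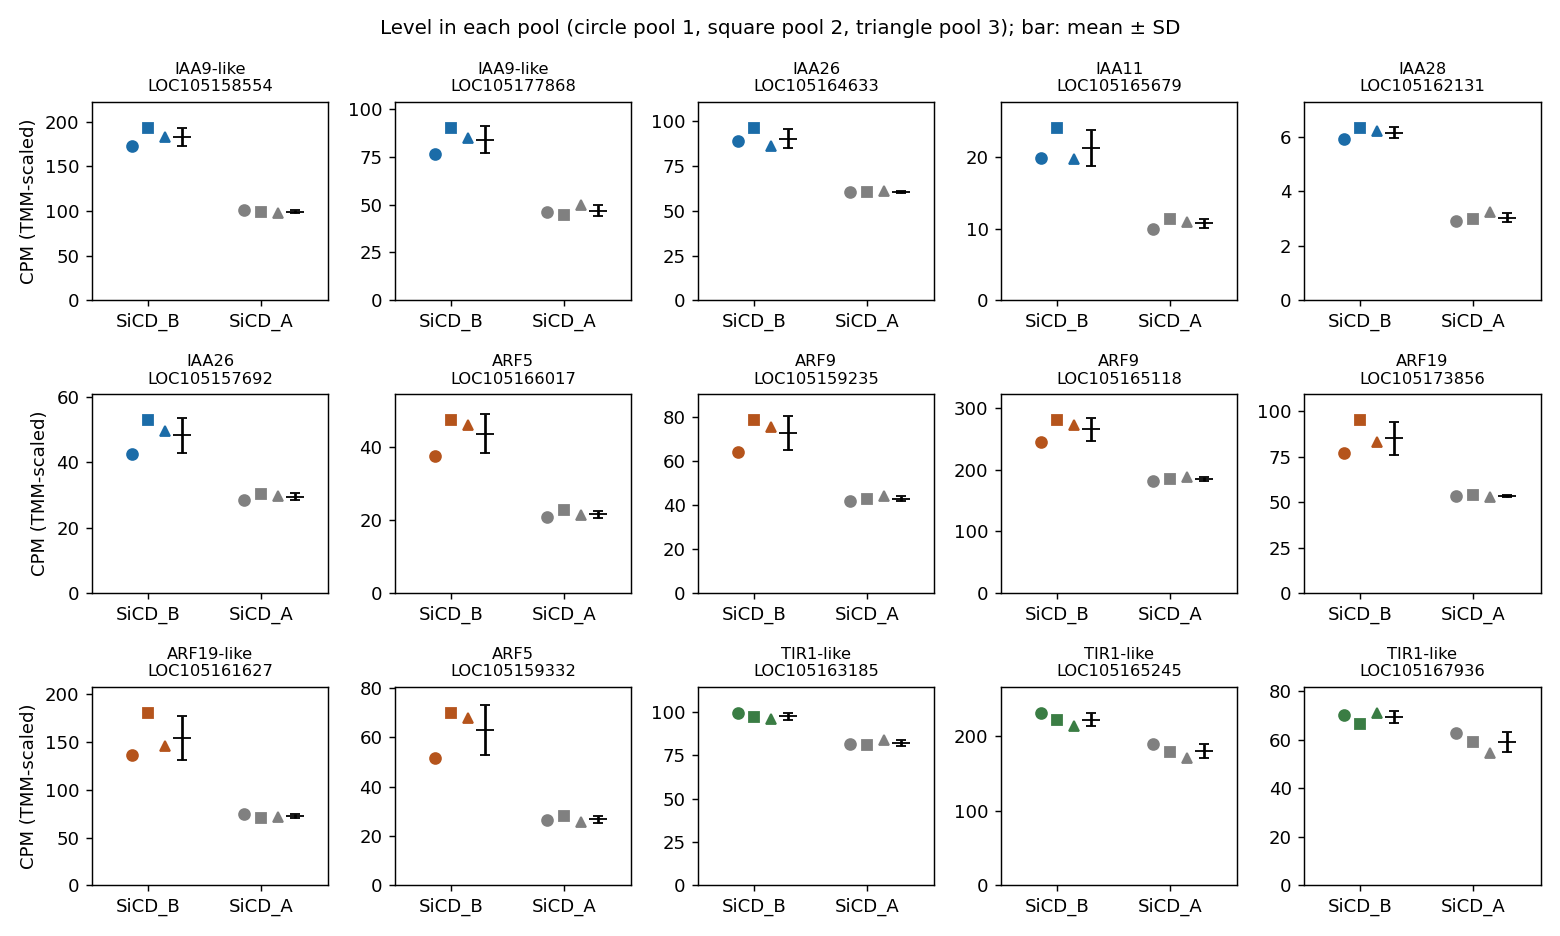
The vertical axis is the level in CPM of 15 called genes, those of smallest p in each class (6 Aux/IAA genes, 6 ARFs and 3 receptors), with 1 marker per pool, SiCD_B left of SiCD_A and the mean ± SD beside them. In none of the 15 panels do the 3 SiCD_B pools overlap with the 3 SiCD_A pools.

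The largest shifts of any ARF were in both ARF5 genes and in ARF19-like. ARF5, called MONOPTEROS in Arabidopsis, is an activator needed for the embryo axis, veins and organ initiation. ARF5 LOC105159332 (linkage group 3, coding segment 23535347 to 23535449) had 51.5, 69.9 and 67.8 CPM in the SiCD_B pools, against 26.5, 28.3 and 25.5 CPM in the SiCD_A pools. Pool 1 was the lowest of SiCD_B and still far above the SiCD_A pools. The log2 fold change was 1.24 (SE 0.12, adjusted p = 0.000606). ARF5 LOC105166017 (linkage group 7, coding segment 2714154 to 2714259) had 37.5, 47.3 and 46.1 CPM in the SiCD_B pools, against 20.7, 22.6 and 21.5 CPM in the SiCD_A pools, again with pool 1 the lowest of SiCD_B. It rose by 1.02 (SE 0.09, adjusted p = 0.000220).

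ARF19 is an activator that acts with ARF7 in Arabidopsis leaf expansion and lateral root formation. ARF19-like (LOC105161627, linkage group 5, coding segment 1675632 to 1675689), also marked as low quality, had 136, 180.5 and 145 CPM in the SiCD_B pools, against 74.7, 70.3 and 71.8 CPM in the SiCD_A pools. Pool 2 stood well above the other SiCD_B pools, and there was no overlap. Its log2 fold change was 1.09 (SE 0.10, adjusted p = 0.000458). ARF19 LOC105173856 (linkage group 11, coding segment 10009638 to 10009701) had 76.8, 95.1 and 83.2 CPM in the SiCD_B pools, against 53.5, 53.8 and 52.7 CPM in the SiCD_A pools, a rise of 0.67 (SE 0.07, adjusted p = 0.000422). Another gene of the name, ARF19 LOC105173711, had 49.7 ± 2.06 CPM in SiCD_B and 44.9 ± 0.101 CPM in SiCD_A and a change of only 0.14 (SE 0.04, adjusted p = 0.0379). That call was lost when any pool other than SiCD_B pool 1 was left out (adjusted p = 0.0672 to 0.123), with DESeq2's test (0.0591) and with upper-quartile factors (0.0574).

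Both ARF9 genes rose as well. ARF9 is known from tomato as a gene that holds back cell division in young fruit. ARF9 LOC105159235 (linkage group 1, coding segment 8571391 to 8571445) had 63.8, 78.4 and 75.4 CPM in the SiCD_B pools, against 41.8, 42.6 and 43.9 CPM in the SiCD_A pools. The SiCD_A pools were nearly equal and all below the SiCD_B pools, and the log2 fold change was 0.76 (SE 0.07, adjusted p = 0.000293). ARF9 LOC105165118 (linkage group 6, coding segment 19079323 to 19079380) had 244, 279.9 and 271 CPM in the SiCD_B pools, against 181, 185 and 187 CPM in the SiCD_A pools, a rise of 0.52 (SE 0.06, adjusted p = 0.000362).

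Among 6 genes named ARF18 or ARF18-like, 3 were called. ARF18-like LOC105170725 (linkage group 9, coding segment 5556940 to 5557998) had 52.4, 56.9 and 55.6 CPM in the SiCD_B pools, against 40.7, 40.8 and 36.1 CPM in the SiCD_A pools. It rose by 0.49 (SE 0.06, adjusted p = 0.000627), with no overlap. ARF18 LOC105173774 (linkage group 1, coding segment 18371965 to 18372003) had 33.5, 39.1 and 34.1 CPM in the SiCD_B pools, against 26.3, 27.2 and 27.0 CPM in the SiCD_A pools, a change of 0.41 (SE 0.06, adjusted p = 0.00214). ARF18 LOC105174298 had 34.7 ± 1.07 CPM in SiCD_B and 28.9 ± 1.49 CPM in SiCD_A and rose by 0.27 (SE 0.05, adjusted p = 0.00666). The other 3 were not called. ARF18 LOC105161384 had 5.21 ± 0.130 CPM in SiCD_B and 4.63 ± 0.284 CPM in SiCD_A, ARF18 LOC105166607 18.6 ± 0.402 CPM in SiCD_B and 18.5 ± 1.12 CPM in SiCD_A, and ARF18-like LOC105161096 2.39 ± 0.230 CPM in SiCD_B and 2.91 ± 0.346 CPM in SiCD_A. Their 95% intervals on the log2 scale were -0.05 to 0.40, -0.14 to 0.15 and -0.62 to 0.05.

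ARF22 (LOC105170291) stood at 107 ± 1.88 CPM in SiCD_B and 81.8 ± 7.60 CPM in SiCD_A, with SiCD_A pool 3 lowest of all, and rose by 0.38 (SE 0.06, adjusted p = 0.00271). Genes named ARF6, ARF8, ARF2 and ARF1 had small changes. ARF6 and ARF8 promote the ripening of flower organs in Arabidopsis, and ARF1 and ARF2 are repressors there that act in leaf senescence. ARF6-like LOC105167278 had 82.6 ± 4.85 CPM in SiCD_B and 67.5 ± 3.76 CPM in SiCD_A and rose by 0.29 (SE 0.06, adjusted p = 0.00587). ARF6-like LOC105167428 had 143 ± 4.44 CPM in SiCD_B and 128 ± 3.83 CPM in SiCD_A and ARF6 LOC105175759 406 ± 12.7 CPM in SiCD_B and 373 ± 14.8 CPM in SiCD_A. The log2 fold change of LOC105167428 was 0.15 (SE 0.04, adjusted p = 0.0282), a call lost without SiCD_B pool 2 (adjusted p = 0.101) or without SiCD_A pool 1, 2 or 3 (0.0753, 0.0618 and 0.0696). That of LOC105175759 was 0.12 (SE 0.05, adjusted p = 0.0961), and it passed with library size alone (0.0175).

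ARF8-like (LOC105176789) had 269 ± 6.34 CPM in SiCD_B and 245 ± 4.68 CPM in SiCD_A and ARF8 (LOC105176788) 209 ± 8.14 CPM in SiCD_B and 196 ± 2.08 CPM in SiCD_A. The first was called, at 0.14 (SE 0.04, adjusted p = 0.0340), but not without SiCD_B pool 1 (adjusted p = 0.0674), SiCD_B pool 3 (0.104), SiCD_A pool 1 (0.0977) or SiCD_A pool 2 (0.140), nor with upper-quartile factors (0.0505). The second changed by 0.10 (SE 0.04, adjusted p = 0.126) and passed with library size alone (0.0350). ARF2 (LOC105165663) had 85.9 ± 3.73 CPM in SiCD_B and 75.5 ± 1.13 CPM in SiCD_A and rose by 0.19 (SE 0.04, adjusted p = 0.0132), a call lost without SiCD_B pool 3 (0.0516) or SiCD_A pool 1 (0.0589). ARF2-like (LOC105158218) had 244 ± 2.79 CPM in SiCD_B and 256 ± 8.11 CPM in SiCD_A. All its SiCD_B pools lay below all its SiCD_A pools, without a call, at -0.07 (SE 0.04, adjusted p = 0.220). ARF1 LOC105169057 had 117 ± 2.18 CPM in SiCD_B and 110.0 ± 2.33 CPM in SiCD_A and ARF1 LOC105172504 102 ± 5.76 CPM in SiCD_B and 100.1 ± 5.72 CPM in SiCD_A. Neither was called, with intervals of -0.00 to 0.17 and -0.09 to 0.16, and the first passed with library size alone (0.0427).

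ARF17 genes were scarcely detected. ARF17 (LOC105177674) had 23, 26 and 21 counts in the SiCD_B pools, against 20, 7 and 13 counts in the SiCD_A pools. It overlapped between groups and its interval, -0.42 to 1.52, was the widest of the 46. ARF17-like (LOC105159512) had 2, 5 and 6 counts in SiCD_B and 7, 4 and 3 counts in SiCD_A, and was the one gene left untested.

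In Arabidopsis, ARF5, ARF6, ARF7, ARF8 and ARF19 are activators, and most other ARFs are taken as repressors. Of 10 sesame genes named ARF5, ARF6, ARF8 or ARF19, 8 were higher (6 without SiCD_B pool 2), with a median of 0.22. Of 14 tested ARFs with other names 7 were higher, with a median of 0.23. This split was made after the values were seen and was not tested. Summed over the 25 genes, ARFs had 2556, 2732 and 2661 CPM in the SiCD_B pools, against 2224, 2205 and 2172 CPM in the SiCD_A pools.

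No receptor reached 1.5-fold. TIR1-like LOC105163185 (linkage group 6, coding segment 1122785 to 1123239) had 99.4, 96.8 and 95.7 CPM in the SiCD_B pools, against 81.4, 80.9 and 83.8 CPM in the SiCD_A pools. The pools of each group were close, and the groups stood apart, with a log2 change of 0.25 (SE 0.04, adjusted p = 0.00201). TIR1-like LOC105165245 (linkage group 6, coding segment 20502950 to 20503404) had 230.4, 220.5 and 213 CPM in the SiCD_B pools, against 189, 178 and 169.8 CPM in the SiCD_A pools, a rise of 0.31 (SE 0.05, adjusted p = 0.00307). TIR1-like LOC105167936 (linkage group 8, coding segment 8317115 to 8317638) had 70.1, 66.5 and 71.0 CPM in the SiCD_B pools, against 62.8, 59.0 and 54.6 CPM in the SiCD_A pools. It rose by 0.23 (SE 0.06, adjusted p = 0.0141), a call lost without SiCD_B pool 3 (adjusted p = 0.0543) or SiCD_A pool 2 (0.0503).

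The other 2 receptors were not called. AFB2 (LOC105177475) had 151, 151 and 147 CPM in the SiCD_B pools, against 141, 141 and 144 CPM in the SiCD_A pools. Its groups did not overlap, and the 95% interval was -0.01 to 0.16. It passed with library size alone (adjusted p = 0.0428). TIR1-like LOC105175456 had 101 ± 3.10 CPM in SiCD_B and 98.7 ± 1.31 CPM in SiCD_A, with overlapping groups and an interval of -0.06 to 0.12.

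Several Aux/IAA genes sit beside another one. A further 7 genes of the deposited table carry pea and mung bean type names for Aux/IAA proteins (auxin-induced protein 22B, 22C, 22D or IAA6). They fall outside the words used and were collected after the values had been seen. Of these 7, 2 were called higher and 0 lower (3 higher in DESeq2), against 11 of the 17 Aux/IAA genes above. That is 28.6% of the 7, against 16.5% called higher over all genes tested. Some had low levels, such as 22B (LOC105158424), with means of 0.741 CPM in SiCD_B and 0.580 CPM in SiCD_A. The log2 fold change was positive for all 7, with a median of 0.39. Next to an Aux/IAA gene described above lie 6 of them, with at most 1 gene between in the RefSeq order of assembly S_indicum_v1.0. The other, 22C-like (LOC105155293), has no known linkage group and was not called (log2 fold change 0.39, adjusted p = 0.376). ARF8 and ARF8-like are also neighbours, with 23.7 kb between their deposited coding segments.

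Partners did not always share a call. IAA1-like (1.04) and its neighbour IAA6 (LOC105157571) were both called, IAA6 at 0.56 (adjusted p = 0.0278). IAA14 LOC105165327 (-0.01) was not called, while its neighbour 22D-like (LOC105165325), 9.71 kb away, rose by 0.64 (adjusted p = 0.000128). IAA14 LOC105164666 (0.65) was called and its neighbour 22C (LOC105164104) was not (0.12, adjusted p = 0.471). AUX28-like (0.16) was called, and its neighbour 22D-like (LOC105163333) had 0.51 without a call (adjusted p = 0.158). For 22B (LOC105158424, 0.36) beside IAA14 LOC105158425 and 22D (LOC105171635, 0.25) beside IAA14 LOC105171637, neither partner was called. These values are log2 fold changes, and the difference within a pair was not tested. How reads of near-identical copies were counted is not given in the sources used here, so values of same-named genes are uncertain to that extent.

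The 47 genes are spread over 14 linkage groups. Linkage group 3 held 8, of which 5 were called, and linkage group 6 held 7, of which 5 were called. On linkage group 8, which carries the SiCD locus, there were 4, and 3 were called: both ARF6-like genes and TIR1-like LOC105167936. Their deposited coding segments start 3.05 to 4.66 Mb from that of KAN1. The fourth, ARF1 LOC105169057, starts 11.9 Mb from it. As the lines were grouped by their SiCD allele, other alleles linked to it cannot be told apart from an effect of kan1.

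Within SiCD_B the pools were not alike. Pool 2 was the highest of the 3 for 25 of the 46 genes (54.3%), against 33.7% of all genes tested. It was highest for 10 of 17 Aux/IAA genes and 14 of 24 ARFs, but for 1 of 5 receptors. The median of the 46 genes relative to the SiCD_A mean was 0.25, 0.23 and 0.27 on the log2 scale in SiCD_B pools 1, 2 and 3. It was 0.02, -0.00 and -0.01 in SiCD_A pools 1, 2 and 3. Without SiCD_B pool 2, 26 of the genes were higher and 0 lower.

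**Figure D4:**
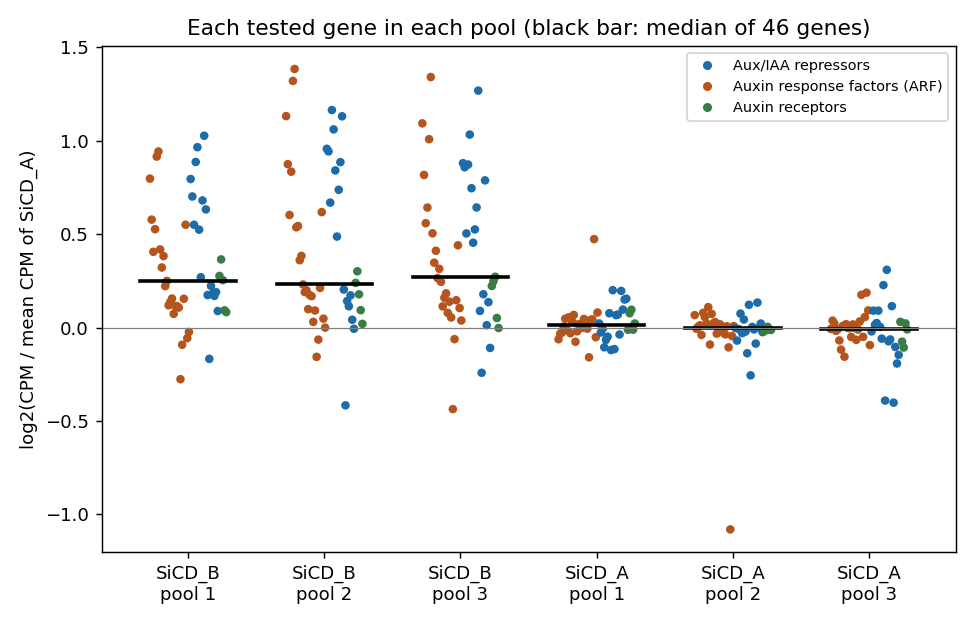
The vertical axis is the log2 of each gene's CPM over its mean in SiCD_A, for 46 genes in each of 6 pools, with the median as a black bar. The SiCD_B medians are 0.23 to 0.27 and the SiCD_A medians -0.01 to 0.02, and the lowest point is ARF17 in SiCD_A pool 2, which rests on 7 counts.

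Other steps of the auxin pathway were read from lists of product words. Their counts stand beside 16.5% called higher and 14.1% called lower over all genes tested. Of 8 genes for GH3 enzymes, which attach amino acids to auxin and so lower its free level, 5 were higher and 0 lower (0 lower at an unadjusted p under 0.05, in DESeq2 and in limma-voom). Their median log2 fold change was 1.22. GH3.6 (LOC105174793) had 40.2 ± 6.51 CPM in SiCD_B and 12.7 ± 1.201 CPM in SiCD_A, a rise of 1.66 (SE 0.12, adjusted p = 0.000220). GH3.1 LOC105176322 rose by 1.55 (SE 0.16, adjusted p = 0.000330) and GH3.1 LOC105172687 by 1.72 (SE 0.27, adjusted p = 0.00196). Without SiCD_B pool 2 the higher GH3 genes numbered 3.

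Of 26 polar transport genes tested, 15 were higher and 1 was lower (median 0.43). The lower ones numbered 2 without SiCD_A pool 1. The efflux carriers named component 1c (LOC105166523) and 7-like (LOC105160071), of the PIN family, rose by 1.59 (SE 0.14, adjusted p = 0.000168) and 0.82 (SE 0.05, adjusted p = 5.66e-05). Auxin transporter-like protein 5 (LOC105169770), an uptake carrier, rose by 1.36 (SE 0.14, adjusted p = 0.000381). PIN-LIKES 2-like (LOC105177905), of a family that holds auxin in the endoplasmic reticulum, fell, with a log2 change of -0.32 (SE 0.05, adjusted p = 0.00258).

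Synthesis genes went both ways, 5 higher and 3 lower of 12 (median 0.39). YUCCA4 genes, for the enzyme of the final step, rose. LOC105164817 changed by 1.40 (SE 0.16, adjusted p = 0.000430) and LOC105168233 by 1.30 (SE 0.20, adjusted p = 0.00181). TAR2-like (LOC105157456), for the step before, rose by 0.60 (SE 0.08, adjusted p = 0.00116). TAR4-like (LOC105178755), TAR4 (LOC105179045) and YUCCA6 (LOC105170279) fell, with log2 fold changes of -0.79 (SE 0.09, adjusted p = 0.000698), -1.70 (SE 0.26, adjusted p = 0.00383) and -1.66 (SE 0.34, adjusted p = 0.00678). The lower genes numbered 2 with a CPM of at least 1 required in 3 pools.

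SAUR genes encode a large family of small growth proteins. Of 38 tested, 1 was higher and 3 were lower, with a median of -0.02. Auxin-induced protein 6B (LOC105172953) rose by 1.155 (SE 0.25, adjusted p = 0.00877). SAUR50 (LOC105170814), SAUR71-like (LOC105158157) and SAUR66-like (LOC110011563) fell, with log2 fold changes of -0.71 (SE 0.13, adjusted p = 0.00363), -0.93 (SE 0.20, adjusted p = 0.00934) and -0.38 (SE 0.10, adjusted p = 0.0215). Leaving out SiCD_A pool 3 gave 2 higher SAUR genes, and library size alone gave 3. The lower ones numbered 5 without SiCD_B pool 1 and with DESeq2's test.

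Of 18 corepressors and ligase partners, 3 were higher and 0 lower (1 lower at an unadjusted p under 0.05 and in DESeq2, 0 in limma-voom). The higher share, 16.7%, was near the 16.5% of all genes tested, and the median of the list was 0.01. TOPLESS-related 4 (LOC105158374) rose by 0.53 (SE 0.08, adjusted p = 0.00144). Of 4 genes named SKP1-like 1A, for proteins that tie F-box proteins to the ligase, 2 rose and 2 were not called. LOC105169797 changed by 0.24 (SE 0.06, adjusted p = 0.0168) and LOC105165986 by 0.15 (SE 0.04, adjusted p = 0.0300). Without SiCD_A pool 2 the higher ones numbered 1. TOPLESS itself (LOC105158348) had 277 ± 16.7 CPM in SiCD_B and 308 ± 17.1 CPM in SiCD_A, with all SiCD_B pools below all SiCD_A pools. It was not called by edgeR's quasi-likelihood test without a block, at -0.16 (SE 0.06, adjusted p = 0.0796), nor by limma-voom (adjusted p = 0.0789). With the pool number as a block, edgeR's test called it lower (adjusted p = 0.0262). It is the gene that was lower in DESeq2 (adjusted p = 0.0372) and at an unadjusted p under 0.05. The authors' deposited table gave it an adjusted p of 0.0385.

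**Figure D5:**
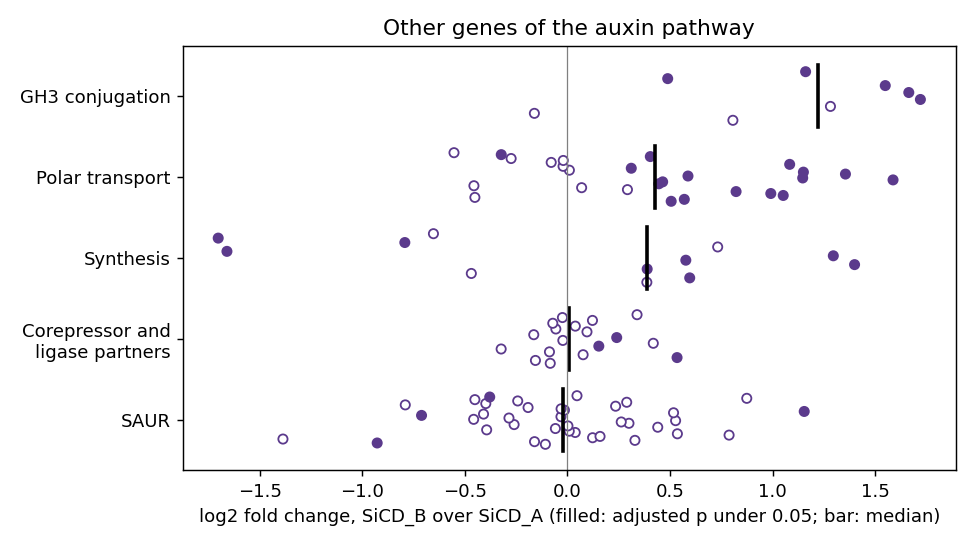
The horizontal axis is the log2 fold change of SiCD_B over SiCD_A for each tested gene of 5 auxin lists, filled where called, with the median as a bar. The medians are 1.22 for GH3 genes, 0.43 for transport, 0.39 for synthesis, 0.01 for corepressors and ligase partners and -0.02 for SAUR genes.

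Markers of other cell types were measured beside these genes. For scale, 16.5% of all genes tested were called higher and 14.1% lower. Of 74 dividing-cell genes tested, 37 were higher and 8 lower. Leaving out SiCD_B pool 2, SiCD_B pool 3 or SiCD_A pool 1 gave 3 lower ones, and leaving out SiCD_A pool 2 gave 4. Their summed level was 3409 to 3501 CPM in SiCD_B and 2835 to 2915 CPM in SiCD_A. That list also took in cyclin-dependent kinases and their inhibitors, because of the letters cyclin-D, and calcyclin-binding protein, because of the letters cyclin-B. Of the 8 lower genes, only putative cyclin-D6-1 LOC105176758 is a cyclin. The others were kinase inhibitors, cyclin-dependent kinase F-4-like genes and calcyclin-binding protein (LOC105175713). Inhibitors were also among the higher genes, such as cyclin-dependent kinase inhibitor 4 (LOC105165725, log2 fold change 0.49). A narrower list, made after the values were seen, held mitotic cyclins, histone H3.2 and PCNA alone. It left out the D-type cyclins as well. Putative cyclin-D6-1 LOC105176758 was the only D-type cyclin called lower (-1.74 on the log2 scale). Several others were called higher, among them cyclin-D3-3 LOC105159150 (0.54), cyclin-D3-1 LOC105169513 (0.28) and cyclin-D5-1 LOC105177812 (0.63). Putative cyclin-D6-1 genes LOC105178534 (0.60) and LOC105175446 (0.38) were also called higher. The 0 lower genes below hold only for the genes so chosen. Of the 30 on the narrower list, 24 were higher and 0 lower in edgeR, DESeq2 and limma-voom. At an unadjusted p under 0.05, 0 were lower. Pool 2 was the highest of SiCD_B for 27 of these 30.

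Of 11 phloem markers, the vascular genes found, 8 were lower and 0 higher (0 also at an unadjusted p under 0.05, in DESeq2 and in limma-voom), with 175 to 206 CPM in SiCD_B and 227 to 254 CPM in SiCD_A. The lower ones numbered 4 without SiCD_B pool 2, SiCD_B pool 3 or SiCD_A pool 1, and 5 without SiCD_A pool 2. Of 13 tested genes with knotted-1-like, WUSCHEL or CUP-SHAPED COTYLEDON names, 6 were higher and 1 lower (0 without SiCD_B pool 2 or 3 or any SiCD_A pool). This list, meant for meristem, summed to 304 to 330.2 CPM in SiCD_B and 269.8 to 310.4 CPM in SiCD_A. The higher genes were WUSCHEL-related homeobox 1, 1-like, 3-like and 4 and knotted-1-like 1 genes. Most of the level was LET12 LOC105162276, not called, with means of 184 CPM in SiCD_B and 165 CPM in SiCD_A. Whether these genes mark meristem cells here was not tested. Leaf mesophyll genes marked the tissue, at 21944 to 25833 CPM in SiCD_B and 21764 to 32804 CPM in SiCD_A, with 1 higher and 3 lower of 20. Their median log2 fold change was -0.32, and 4 of the 20 were positive. Lower genes numbered 6 in DESeq2, 4 in limma-voom and 7 at an unadjusted p under 0.05. The lower ones numbered 16 without SiCD_A pool 3, 11 with the pool number as a block, 1 without SiCD_B pool 1 and 0 without each of the other pools. Casparian strip genes, the root markers found, summed to 1.03 to 1.19 CPM in SiCD_B and 0.890 to 1.01 CPM in SiCD_A. None of the 4 tested was called by any tool or at an unadjusted p under 0.05. The list meant for guard cells held genes with SPEECHLESS, FAMA, MUTE or EPIDERMAL PATTERNING FACTOR names, the last taking in the factor-like genes. Of 13 tested, 5 were higher and 2 lower (1 lower without SiCD_B pool 1 or 2 or SiCD_A pool 1 or 2). The lower ones were FAMA (log2 fold change -0.75, adjusted p = 0.000692) and MUTE (-0.33, adjusted p = 0.0242). Higher were SPEECHLESS (0.52, adjusted p = 0.0127), EPIDERMAL PATTERNING FACTOR 2 and EPIDERMAL PATTERNING FACTOR-like 1, 2 (LOC105159073) and 4. Whether the genes of this list mark guard cells here was not tested, so its counts are not a measure of guard cells. Of 18 flower genes, 3 were higher and 0 lower (2 lower at an unadjusted p under 0.05, 1 in DESeq2, 0 in limma-voom). The higher share, 16.7%, was near the 16.5% of all genes tested. These higher genes were APETALA 2 (LOC105177600), APETALA 2-like (LOC105176219) and APETALA 1 A-like (LOC105180307). The part of any cell type in the shift of the auxin genes was not tested.

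The authors' deposited table gave 28 of the 47 genes an adjusted p under 0.05 with a higher level, and 0 with a lower one. All 28 were among the 29 called here, and the other one was ARF19 LOC105173711 (adjusted p = 0.0634 in the authors' deposited table). The ARFs left out by name were ARF3 (LOC105175642), ARF4 (LOC105170702) and ARF4-like (LOC105170317), which rose by 0.46, 0.75 and 0.39 on the log2 scale.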

How the data were processed

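RNA of 6 pools was read as pairs of 100 bases from TruSeq version 2 libraries, a kit that does not mark strand, so overlapping antisense genes cannot be separated. Per the submitters' processing notes, the tools were STAR, HTSeq, SAMtools, Trim Galore, DESeq2 and FastQC 0.11.4, with a genome build not given in the sources used here. Raw counts were deposited by the authors, a whole number for each gene. The authors' deposited table gives log2 fold changes and adjusted p-values of their comparison, product names and 1 coding segment per gene, whose positions are printed. RefSeq (assembly S_indicum_v1.0) gave linkage groups and gene order, and all 47 genes were matched.

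The test was edgeR 4.0.16 under R 4.3.3 (quasi-likelihood, robust, TMM, filterByExpr, SiCD_B minus SiCD_A, no covariates). The SE is the size of the log2 fold change divided by the square root of F. Alternatives used DESeq2 1.42.0, limma 3.58.1 (voom), other scalings and filters, the pool number as a block, a stricter threshold of 0.01 and each pool left out. Figures used matplotlib 3.10.9.

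The genes and lists were chosen with earlier results of these data known. Values in full are those of called genes, up to 8 by smallest p in each class and direction plus those past 1.5-fold, up to 3 uncalled genes per class, and up to 3 called genes per list and direction. Other uncalled genes and TOPLESS were named after their values were seen. A planned comparison of levels per coding length and of protein and promoter sequence features was not made, since no coding lengths or sequences were used here. Within groups the chi-square between pools, divided by its degrees of freedom, was 5.24 to 29.7, so no pool was taken as a repeat of another. Depth was 56123250 to 82165322 counts.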

Additional observations from a re-analysis of the deposited data

How the results depend on the processing

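The numbers of auxin response genes called higher and lower stayed within 1.5 times of those reported under every alternative run. Higher genes numbered 28 with DESeq2 size factors and with DESeq2's test, 26 with upper-quartile factors, 33 with library size alone, and 29 with no filter, with a CPM of at least 1 in 3 pools and with limma-voom. With a threshold of 0.01 they numbered 23. Without each pool in turn they were 24 to 27, with 10 to 11 Aux/IAA genes, 11 to 14 ARFs and 2 to 3 receptors, and 0 were lower. Genes of the 5 pathway lists numbered 24 to 29 higher and 6 to 9 lower without each pool, against 29 and 7.

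The pool number as a block gave 29 higher and 0 lower, and 30 and 9 for the pathway lists. Same-numbered pools deviated together only weakly (correlations 0.0701, 0.00909 and 0.0565 over 21009 genes). Pools of unlike number had lower correlations, from -0.0784 to 0.00446. Over all genes the block gave 3784 higher and 3397 lower, against 3462 and 2971 without it. The labels do not say that the pool number ties pools of both groups, so the main fit did not take the numbers as pairs. Whether they are pairs was not tested.

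Signs turned for 3 uncalled genes near 0. ARF1 LOC105172504 ranged from -0.0026 to 0.077 without each pool in turn. ARF18 LOC105166607 had -0.0064 with DESeq2 size factors, -0.011 with upper-quartile factors and -0.0069 with DESeq2's test, and ranged from -0.047 to 0.041 without each pool. IAA14 LOC105165327 had 0.040 with library size alone and ranged from -0.082 to 0.071 without each pool. The cause was not tested. ARF17 genes had at most 26 counts per pool, too few to measure a change closely.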
